A study of Mus musculus with 4 samples.

Results

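The microRNAs (miRNAs) mmu-miR-221 and mmu-miR-222 are a pair encoded side by side on the X chromosome and known as repressors of the cell cycle inhibitor p27. They were chosen by the names of their probes, a rule that uses no measured value, but earlier results of these data were known. They are 2 of the 566 mouse miRNA probes and of the 618 probes in the table. Levels were measured with NanoString's nCounter miRNA Expression Assay, which hybridises colour-coded probes to miRNAs and counts them one by one, in total RNA from 2 liver tumours and 2 normal livers. Per the labels' protocols, female NF2fl/fl mice, whose Nf2 gene carries loxP sites for deletion by Cre recombinase, received AAV2/8-Cre, an adeno-associated virus that carries Cre, or PBS. The virus was given for a deletion of Nf2 limited to hepatocytes, and the sources used here give neither the promoter that drives Cre nor the age of the mice. Livers were inspected 50 weeks after administration and tumours were dissected. The protocols name 3 mice without saying how they were divided. No label ties the normal livers to the PBS mice or each sample to an animal of its own. The p-values therefore reflect only how far these 4 samples spread, and that spread may be technical. Merlin, the product of Nf2, restrains growth through the Hippo pathway.

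A miRNA guides the silencing complex to messenger RNAs whose 3′ ends pair with its seed, bases 2 to 8, and lowers their translation and stability. The messenger RNA of p27 (Cdkn1b), an inhibitor of the cyclin-dependent kinases (CDKs) that drive cells from rest into division, holds sites for miR-221 and miR-222, and that of the related inhibitor p57 (Cdkn1c) does too. Another known target is the receptor Kit. The pair is raised in many human liver cancers, and is also abundant in endothelial cells and fibroblasts.

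The mature sequences are printed because the shared seed is what makes the pair act on the same sites, while the rest of the sequence is what lets separate probes tell the members apart. They are the 3p products, which older nomenclature names without an arm, from RefSeq on GRCm38.p6, written 5′ to 3′ with the seed in capitals.
mmu-miR-221-3p: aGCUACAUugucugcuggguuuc
mmu-miR-222-3p: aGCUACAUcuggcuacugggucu
mmu-miR-1928: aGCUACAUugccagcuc
MiR-221-3p lies on the minus strand at chrX:19146307-19146329 and miR-222-3p on the same strand at chrX:19146901-19146923. The first 8 bases were the same in both, and aligned from the 5′ end without gaps 11 of 23 positions were identical (47.8%). Every position from 9 to 17 differed, beginning with U9C and G10U and ending with G17U, where the first letter is the base of miR-221 and positions count from the 5′ end. The remaining differences were U20G, U22C and C23U. Both seeds pair with AUGUAGC in a messenger RNA. The RefSeq table held 3 mature mouse names with this seed. The remaining one, miR-1928, lies on chromosome 1 at chr1:74206562-74206578, matches miR-221 at 14 of 17 positions and miR-222 at 8 of 17, and had a probe of its own.

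The precursor hairpins are printed because they show where each counted product sits and how close the members lie, with the mature 3p product in capitals.
hairpin of Mir221: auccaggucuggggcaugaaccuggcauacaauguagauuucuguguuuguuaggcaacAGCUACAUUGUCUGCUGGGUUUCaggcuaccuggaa
hairpin of Mir222: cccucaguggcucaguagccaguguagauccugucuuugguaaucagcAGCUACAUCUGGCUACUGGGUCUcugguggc
The hairpin of Mir221 spans chrX:19146294-19146388 (95 bases) and that of Mir222 spans chrX:19146893-19146971 (79 bases). Between them lie 504 bases, and on the minus strand the Mir222 hairpin comes first. No other gene of the RefSeq table overlapped either hairpin. The pair is known to be cut from 1 shared primary transcript.

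The deposited values were probe counts multiplied by 1 factor per sample, so the counts could be recovered. They totalled 247020 and 129422 over the scaled probes in the tumours, against 70204 and 63744 in the normal livers. A miRNA counted as detected in a sample where its count lay over a threshold set from the 6 negative controls of the same sample (their mean plus 2 SD), which was 17.6 and 14.9 counts in the tumours and 18.3 and 11.2 counts in the normal livers. By this measure 311 and 209 of the 566 miRNAs were detected in the tumours, against 163 and 272 in the normal livers. These numbers depend on depth and on the SD of only 6 controls. That SD was 5.05 and 3.615 counts in the tumours and 4.75 and 1.751 counts in the normal livers. They are therefore not a measure of how many miRNAs each tissue held. The defining miRNA of hepatocytes, miR-122, had 31635 and 18105 counts in the tumours and 11760 and 12674 counts in the normal livers. The chi-square per probe on recovered counts was 34.1 over 387 probes between the tumours and 3.24 over 324 probes between the normal livers. It took probes with 20 or more counts in the 2 samples together. For the same relative difference this measure grows with depth, which was greater in the tumours. It therefore does not show in which group the samples differed more from each other.

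MiR-221 was detected in all 4 samples. It had 186 and 89 counts in the tumours (95% exact Poisson intervals 160.2 to 214.7 and 71.47 to 109.5), against 37 and 19 counts in the normal livers (26.05 to 51.0 and 11.44 to 29.67). Its counts were 10.57 and 5.975 times the detection threshold in the tumours and 2.018 and 1.701 times in the normal livers. These intervals cover counting error only.

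MiR-222 was detected in both tumours and in neither normal liver. It had 193 and 84 counts in the tumours (166.7 to 222.2 and 67.0 to 104.0), against 14 and 10 counts in the normal livers (7.654 to 23.49 and 4.795 to 18.39). The normal counts were 0.7636 and 0.8953 times the detection threshold, and the mean of the negative controls there was 8.833 and 7.667 counts. A level of miR-222 below the threshold in the normal livers was therefore not measurable at this depth, which is different from an absence.

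The third miRNA with the seed, miR-1928, was detected in none of the samples. Its probe had 15 and 6 counts in the tumours and 13 and 11 counts in the normal livers. It was left out of the tests because its mean log2 value of 3.75 lay under the 3.925 required of a kept miRNA.

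**Figure D1:**
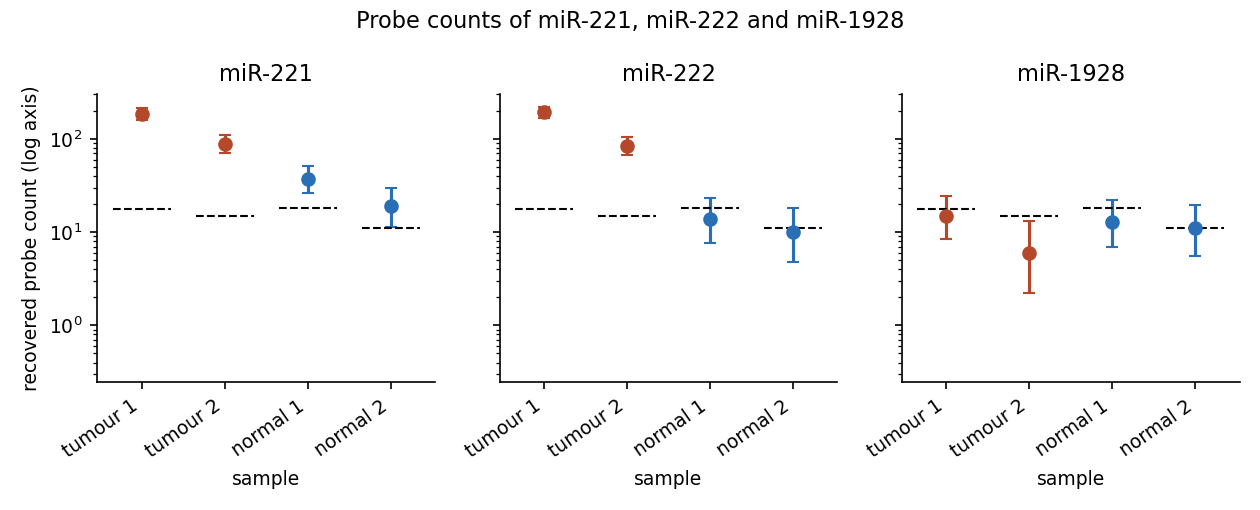
Recovered probe counts (log axis) of miR-221, miR-222 and miR-1928 in each tumour and each normal liver, with 95% exact Poisson intervals as bars and each sample's detection threshold as a dashed line. MiR-221 lies above the line in all 4 samples, miR-222 only in the 2 tumours, and miR-1928 in none.

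The members stood at almost the same place among the miRNAs of the tumours. By count, miR-221 ranked 91st and 90th of 566 in the tumours, against 97th and 143rd in the normal livers. MiR-222 ranked 90th and 92nd in the tumours, against 218th and 297th in the normal livers. As a share of all mouse miRNA counts, miR-221 made up 0.07759% and 0.07188% in the tumours and 0.0542% and 0.03062% in the normal livers. MiR-222 made up 0.08051% and 0.06784% in the tumours and 0.02051% and 0.01611% in the normal livers. On this measure both tumours lay above both normal livers for each member. The mean share of miR-221 was 0.07473% ± 0.004037 in the tumours and 0.04241% ± 0.01668 in the normal livers (SD, n = 2 each). That of miR-222 was 0.07417% ± 0.008957 in the tumours and 0.01831% ± 0.003108 in the normal livers (SD, n = 2 each), and the normal mean rests on counts at background.

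The deposited scaling gave another picture for miR-221. Its deposited values were 73.48 and 80.55 in the tumours, against 77.17 and 43.63 in the normal livers. The first normal liver lay between the tumours, so the groups overlapped, and the second lay below them. The means were 77.02 ± 4.999 in the tumours and 60.4 ± 23.7 in the normal livers (SD, n = 2 each). The log2 difference, tumour minus normal, was 0.40 (SE 0.34, 95% interval -0.42 to 1.22), and it did not pass the test (limma on log2(value + 1), adjusted p = 0.348 over 276 kept miRNAs). The interval holds both no difference and a rise of more than 1 on the log2 scale, so this p does not show that miR-221 was alike in both groups. The difference was close to 0 (-0.004) without normal liver 2 and 0.80 (adjusted p = 0.105) without normal liver 1.

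MiR-222 was higher in the tumours. Its deposited values were 76.24 and 76.03 in the tumours, against 29.2 and 22.96 in the normal livers, and the groups did not overlap. The means were 76.1 ± 0.149 in the tumours and 26.1 ± 4.41 in the normal livers (SD, n = 2 each). The log2 difference was 1.52 (SE 0.27, 95% interval 0.88 to 2.16, limma adjusted p = 0.00478). Because neither normal liver reached the detection threshold, the fold was computed with each normal value raised to its scaled threshold. MiR-222 was then 2.43-fold higher in the tumours. This is not a minimum, since the Poisson upper limits of the normal values, 48.99 and 42.23, lay above those thresholds. Without normal liver 2 the adjusted p was 0.0517, and without normal liver 1 it was 0.0411. The mean log2 value of miR-222 in the normal livers alone, 4.75, exceeded the 3.925 required by the filter on low values. That limit was set over all 4 samples, and both normal values lay under their own scaled detection thresholds of 38.24 and 25.65. Passing it therefore does not show a level of miR-222 above background in the normal livers. A stricter filter, chosen after seeing the data and set on all single control values at 5.57, kept 116 miRNAs and not miR-222.

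**Figure D2:**
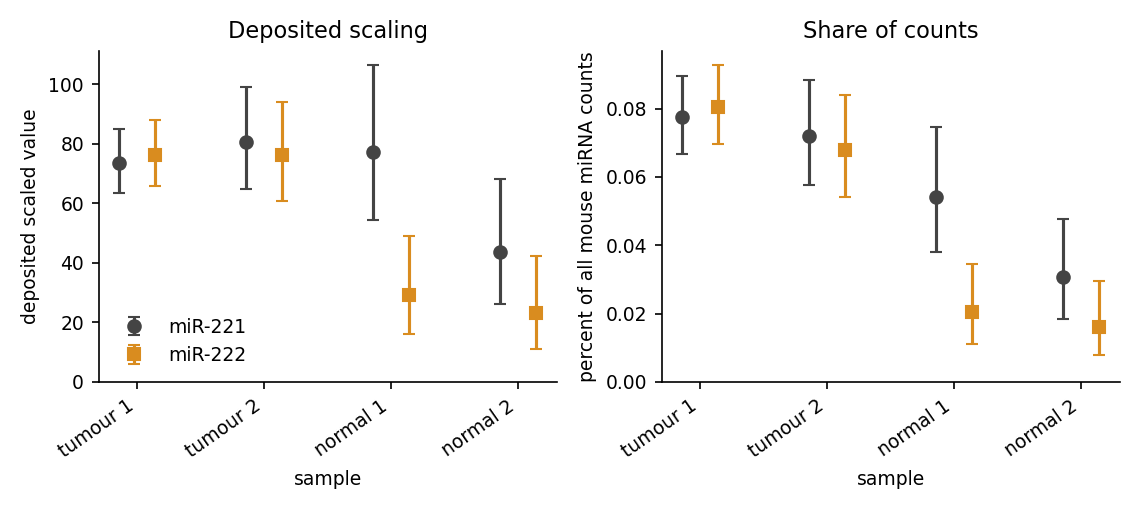
Deposited scaled values (left) and percent of all mouse miRNA counts (right) of miR-221 and miR-222 in each tumour and each normal liver. Bars are 95% intervals, from the Poisson limits of the counts (left) and exact binomial (right). Both members lie close together in each tumour, and miR-222 lies below miR-221 in each normal liver.

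Of the 2 members, 1 was called higher and 0 were called lower by limma, and with no adjustment the count at p under 0.05 was the same. Over all 276 kept miRNAs, 7.97% were called higher and 46.7% lower, with a median log2 difference of -0.90. MiR-222 had the 10th highest difference of the 276 and lay above 96.4% of them, and miR-221 was 38th and lay above 86.2%. Relative to the median, the differences were 1.30 for miR-221 and 2.42 for miR-222. Many of the kept miRNAs had low counts, and the detection threshold in deposited units was 6.953 and 13.48 in the tumours, against 38.24 and 25.65 in the normal livers. Among the 136 miRNAs detected in all 4 samples, the median was -0.31, 29 had a larger difference than miR-221 and 8 a larger one than miR-222.

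**Figure D3:**
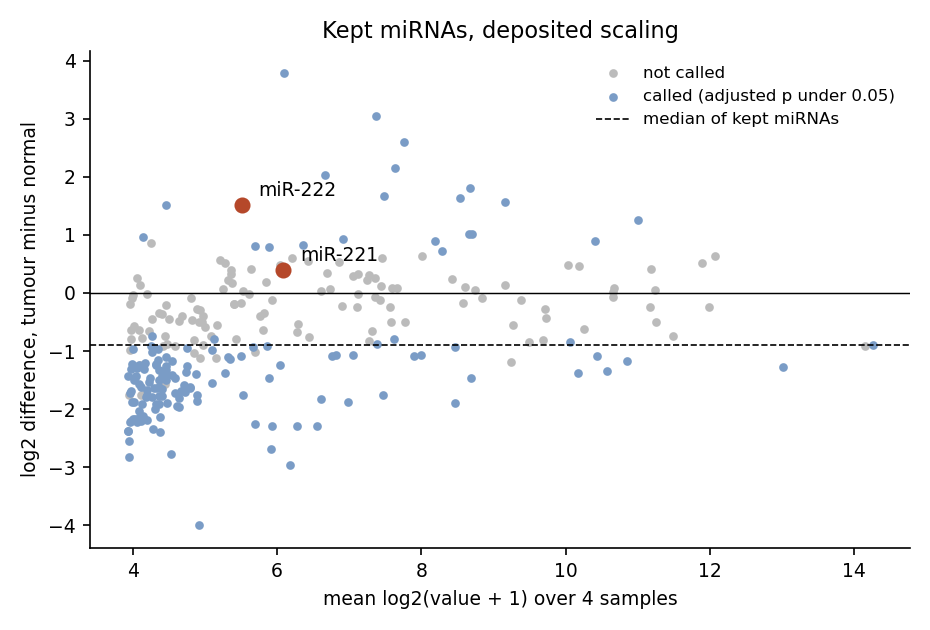
Log2 difference (tumour minus normal) against mean log2(value + 1) over the 4 samples for the 276 kept miRNAs, with called miRNAs in blue, the members in red and the median of -0.90 as a dashed line. MiR-222 and miR-221 both lie above the median, and miR-222 was called.

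The size of the difference depended on how the samples were scaled. The deposited factors were 0.395 and 0.9051 for the tumours and 2.086 and 2.296 for the normal livers, and they made the geometric mean of the 100 strongest miRNAs equal in all samples. With the geometric mean of the positive controls made equal in place of this, the log2 difference was 1.41 for miR-221 (adjusted p = 0.0298) and 2.52 for miR-222 (adjusted p = 1.65e-05), and 15.9% of kept miRNAs were called higher. The edgeR quasi-likelihood test on the recovered counts gave 1.19 for miR-221 (adjusted p = 0.0174) and 2.39 for miR-222 (adjusted p = 0.000652), with 25.7% of kept miRNAs called higher and 14.1% lower. DESeq2 gave 1.19 (adjusted p = 0.0405) and 2.40 (adjusted p = 2.97e-05), with 19.2% called higher. Equal medians gave 1.95 (adjusted p = 0.0026) and 3.05 (adjusted p = 0.000195), with 40.2% called higher. Equal totals gave 0.86 for miR-221 (adjusted p = 0.0833) and 1.98 for miR-222 (adjusted p = 0.0037), with 12.3% called higher. Quantile normalization gave 0.84 (adjusted p = 0.228) and 2.39 (adjusted p = 0.0156), with 6.52% called higher. The split of calls moved with them: 22 higher and 129 lower under the deposited scaling, 44 and 10 with equal positive controls, 71 and 39 by edgeR, 53 and 12 by DESeq2, 111 and 7 with equal medians, 34 and 74 with equal totals, and 18 and 11 after quantile normalization. Over these 7 scalings miR-222 was called higher in 7 and miR-221 in 4.

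A factor per sample moves every miRNA and the median of the kept miRNAs by about the same amount, so the difference from the median is nearly fixed by construction under most of these scalings. That of miR-222 lay between 2.41 and 2.44 log2 units above the median in all 7 scalings, and that of miR-221 between 0.87 and 1.32. The median itself ran from -0.90 to 0.63. The rank among the 276 was between 6 and 11 for miR-222 and between 37 and 45 for miR-221. Settings that do not shift all miRNAs alike moved the difference of miR-222 from the median, to 3.52 with background subtracted and 1.39 with a pseudocount of 30, and for miR-221 it was 1.32 and 0.74.

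**Figure D4:**
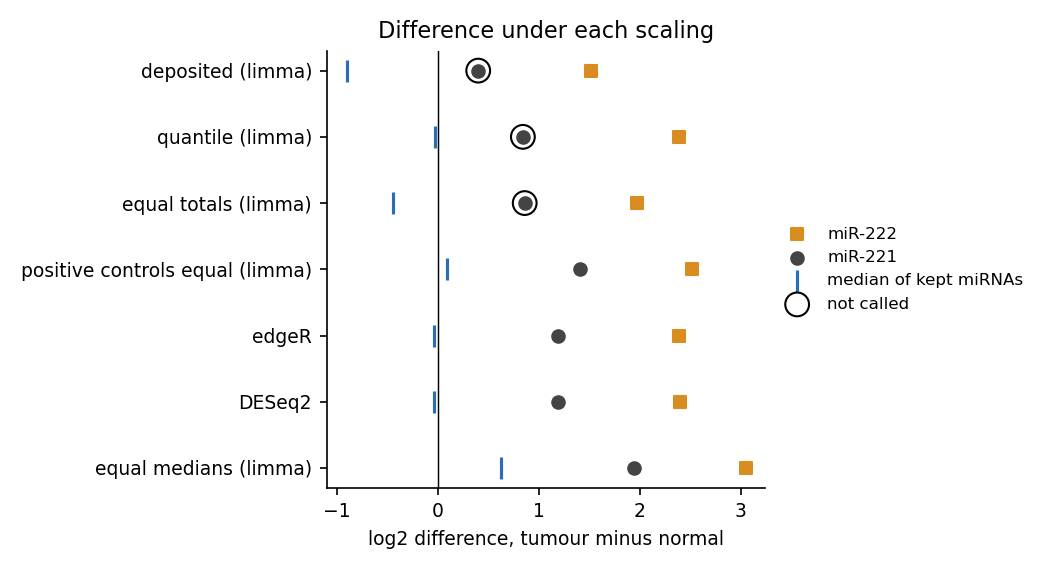
Log2 difference (tumour minus normal) of miR-222 and miR-221 under 7 scalings or tests, with the median of the 276 kept miRNAs as a blue bar and open rings around differences that were not called. MiR-222 was called in all 7, at 1.52 to 3.05, and miR-221 in 4, at 0.40 to 1.95 over the 7.

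The ratio of the members within a sample does not depend on the scaling. MiR-222 made up 50.9% and 48.6% of the summed counts of the pair in the tumours (95% exact binomial intervals 45.8 to 56.1 and 40.9 to 56.3), against 27.5% and 34.5% in the normal livers (15.9 to 41.7 and 17.9 to 54.3). The members were counted about equally in the tumours, with 1.04 and 0.944 counts of miR-222 per count of miR-221, and unequally in the normal livers, with 0.378 and 0.526. Both tumours lay above both normal livers. The log2 ratio averaged -0.015 ± 0.097 in the tumours and -1.164 ± 0.337 in the normal livers (SD, n = 2 each), a difference of 1.15 as counted. Since miR-222 was under the detection threshold in both normal livers, the fold was also computed with miR-222 raised to that threshold there. The ratio was then 1.83-fold higher in the tumours (log2 difference 0.875). This is not a minimum, since it leaves out the counting error of both members. The exact permutation test (two-sided) gave p = 0.333, which is the smallest that 2 against 2 samples can give. The probes differ in sequence and may count with unequal efficiency, so the ratio within a sample is not a ratio of molecules, and the comparison between samples rests on the probes alone. After subtraction of the mean negative control the ratios were 1.04 and 0.939 in the tumours and 0.183 and 0.206 in the normal livers. With miR-222 raised to the detection threshold in the normal livers they were 0.496 and 0.588 there, still below both tumours.

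**Figure D5:**
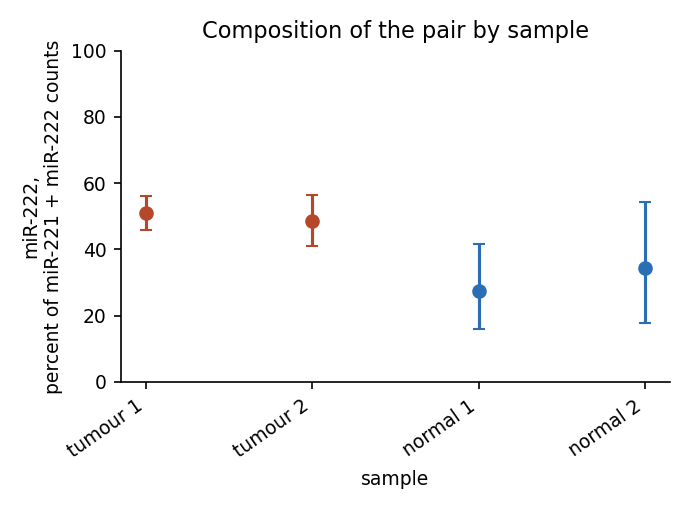
Percent of the summed miR-221 and miR-222 counts that were miR-222, in each tumour and each normal liver, with 95% exact binomial intervals. The tumours sit at 50.9% and 48.6% and the normal livers at 27.5% and 34.5%, the interval of normal liver 1 overlaps that of tumour 2, and the interval of normal liver 2 overlaps those of both tumours.

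Summed over the pair, the counts were 379 and 173 in the tumours and 51 and 29 in the normal livers. This was 0.1581% and 0.1397% of miRNA counts in the tumours, against 0.07471% and 0.04673% in the normal livers. The summed deposited values were 149.7 and 156.6 in the tumours, against 106.4 and 66.59 in the normal livers. On both scales each tumour lay above each normal liver.

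The members followed different miRNAs across the 4 samples. Likeness was measured as the Euclidean distance between the 4 log2 values, each miRNA centred on its own mean, to the 275 other kept miRNAs, so that only the pattern counts and not the level. The nearest to miR-221 were miR-486 at a distance of 0.284, miR-451 at 0.385 and miR-191 at 0.39. Deposited values of miR-451 were 1317 and 1437 in the tumours and 1091 and 902.4 in the normal livers. The nearest to miR-222 were miR-181a at 0.231, let-7i at 0.316 and miR-125b-5p at 0.324. Deposited values of let-7i were 1052 and 915.9 in the tumours and 323.3 and 337.5 in the normal livers. None of the 3 nearest to miR-221 was called under the deposited scaling (limma adjusted p = 0.329, 0.167 and 0.318), and all 3 nearest to miR-222 were called higher. The members were not each other's nearest: miR-222 was 88th of 275 from miR-221, at a distance of 1.17, and miR-221 was 31st from miR-222. With 4 samples of 2 groups, these distances hold little beyond the group difference and the spread of the normal livers. Both normal values in the pattern of miR-222 also lay under the detection threshold, as did that of miR-486 in normal liver 2, at 9 counts. The pattern of miR-221 rests on 37 and 19 counts in the normal livers, with their counting error.

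Other miRNAs known to repress CDK inhibitors were compared with the pair. These are members of the miR-17 and miR-106b clusters, with miR-106a, miR-20b and miR-92b from outside them, whose targets include p21 and p57. The list also holds miR-24 and miR-181a, which act on p27. Of 8 probes, 7 were kept; 3 were called higher by limma and 0 lower (0 lower at an unadjusted p under 0.05, and 0 lower by edgeR). The median log2 difference of the 7 was 0.48, against -0.90 over all kept miRNAs, many of which had low counts. All 7 were detected in all 4 samples, and the 136 miRNAs so detected had a median of -0.31. The highest, miR-181a, had deposited values of 314.1 and 320.4 in the tumours and 102.2 and 96.44 in the normal livers. Its log2 difference was 1.67 (limma adjusted p = 0.00339). MiR-25 rose by 1.01 (adjusted p = 0.0196) and miR-106b by 0.82 (adjusted p = 0.0405), and they were named after their values were seen. The lowest was the probe that counts miR-106a and miR-17 together, at 174.6 and 172 in the tumours and 200.2 and 209 in the normal livers, with a log2 difference of -0.24 (adjusted p = 0.446). Under edgeR that difference was 0.62 (adjusted p = 0.0335), so its sign depended on the scaling. By edgeR 7 of the 7 were called higher, with a median of 1.34. Over all kept miRNAs the share called higher was 7.97% by limma and 25.7% by edgeR, where the median was -0.033.

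MiRNAs that repress the cyclins or CDKs themselves, the let-7, miR-15/16 and miR-34 groups with miR-26a, miR-122 and miR-124, showed no common direction under the deposited scaling. Of 20 probes 19 were kept, 4 of them called higher and 4 lower by limma, with a median of 0.056. The highest was let-7i, one of the let-7 family that represses cell cycle and RAS genes, at 1.57 (adjusted p = 0.0036). The others called higher were miR-15b, miR-34a and let-7e, and those called lower were miR-124, miR-34b-5p, miR-122 and miR-15a. The lowest, miR-124, had only 37 and 14 counts in the tumours and 25 and 18 counts in the normal livers, with a log2 difference of -1.70 (adjusted p = 0.00359) that edgeR did not call (-0.90, adjusted p = 0.0808). On their tumour values alone, miR-124 and miR-34b-5p would not have passed the filter on low values. By edgeR 13 of the 19 were called higher and 0 lower, and 2 were lower at an unadjusted p under 0.05. Over all kept miRNAs 7.97% were called higher and 46.7% lower by limma, and 25.7% higher and 14.1% lower by edgeR.

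On the X chromosome, the pair was compared with the other miRNAs whose RefSeq loci all lie there. Of 566 probes 440 matched a RefSeq miRNA, and 69 others were on the X chromosome. Of these 26 were kept, of which 1 was called higher and 11 lower by limma, with a median of -0.87, against 7.97% higher, 46.7% lower and -0.90 for all kept miRNAs. By limma these shares were near those of all kept miRNAs. MiR-362-3p, the one called higher (0.96, adjusted p = 0.0376), had 57 and 27 counts in the tumours and 7 and 4 counts in the normal livers, where it was under the detection threshold. The lowest was miR-767 at -2.82 (adjusted p = 0.00338), with 16 and 4 counts in the tumours and 14 and 24 counts in the normal livers, of which only normal liver 2 lay above the threshold. On its normal values alone (14.6 and 9.18) miR-362-3p would not have passed the filter on low values. MiR-767 would not have passed it on its tumour values alone (6.32 and 3.62). Each was thus kept through the group where it was higher. By edgeR 4 of the 26 were called higher and 4 lower, with a median of 0.034. Over all kept miRNAs edgeR called 25.7% higher and 14.1% lower, with a median of -0.033.

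Markers of cell types that tumour and liver samples could hold were read beside the pair, and their part in its difference was not tested. In bulk tissue, fewer cells of a type and less RNA per cell cannot be told apart. The counts of called probes stand against 7.97% of all kept miRNAs higher and 46.7% lower by limma, and 25.7% higher and 14.1% lower by edgeR. All 5 hepatocyte probes were lower by limma and 1 of them by edgeR, with summed deposited values of 15189 and 19504 in the tumours and 31883 and 36087 in the normal livers. The bile duct epithelial miRNAs (miR-200 family) had 3 of 4 kept probes higher and 1 lower by limma (3 higher and 0 lower by edgeR), with sums of 1301 and 1261 in the tumours, against 206.5 and 211.3 in the normal livers. The mesenchymal and stellate cell probes had 2 of 5 higher and 0 lower by limma (4 and 0 by edgeR), with sums of 2428 and 1455 in the tumours and 1141 and 957.5 in the normal livers. The 2 endothelial miR-126 probes had 0 higher and 1 lower by limma (1 and 0 by edgeR), with sums of 3879 and 4116 in the tumours and 5229 and 4599 in the normal livers. The leukocyte probes had 0 of 5 higher and 2 lower by limma (2 higher and 1 lower by edgeR), with sums of 864.8 and 775.7 in the tumours, against 1114 and 1454 in the normal livers. The 3 erythroid probes, which include miR-451 and miR-486, had 0 called by limma (0 at an unadjusted p under 0.05), with sums of 1720 and 1843 in the tumours and 1571 and 1300 in the normal livers, and 3 called higher by edgeR. In these deposited values the mesenchymal, bile duct and erythroid sums were higher in both tumours than in both normal livers, as were the values of miR-222, and the endothelial, leukocyte and hepatocyte sums were lower. Not every member followed its sum. MiR-144 was lower in both tumours, and so were miR-200c and miR-141, both under the detection threshold in the normal livers. MiR-223 was higher in both tumours (222 and 208.2, against 112.6 and 179.1). The groups overlapped for miR-143, miR-145, miR-214, miR-486, miR-142-3p and miR-150. As shares of all miRNA counts, the mesenchymal, bile duct and erythroid sums were again higher in both tumours and the hepatocyte share was again lower. The endothelial and leukocyte directions did not hold. The endothelial share was 4.096% and 3.673% in the tumours, against 3.673% and 3.228% in the normal livers. The leukocyte share was 0.9131% and 0.6921% in the tumours, against 0.7823% and 1.02% in the normal livers, so the groups overlapped.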

How the data were processed

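Probes were counted in 2 liver tumours and 2 normal livers. The deposited signal values are probe counts that the authors multiplied by 1 factor per sample; 100% of values were whole counts within 0.1 count, and the sources used here name neither the software nor the basis of the factor. The factors made the geometric mean of the 100 strongest miRNAs equal (coefficient of variation 0.0002 percent). Control probes were left unscaled.

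The test was limma 3.58.1 in R 4.3.3 (lmFit, then eBayes; two-sided) on log2(value + 1). P-values were adjusted by Benjamini and Hochberg's method over the 276 miRNAs whose mean log2 value lay above 3.925, a limit 2 SD over the mean of the negative controls once scaled, and called at 0.05. The added 1 shrinks differences of low miRNAs. Alternatives were edgeR 4.0.16 and DESeq2 1.42.0 on recovered counts, other scalings, filters, pseudocounts, background subtraction, a variance trend, the replicate block and each sample left out. The 2 members, their lists and tests were chosen with earlier results of these data known. Named miRNAs were the members, probes with their seed, the 3 nearest patterns to each, and the highest and lowest kept member of each list. Sequences came from RefSeq, GRCm38.p6.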

Additional observations from a re-analysis of the deposited data

How the results depend on the processing

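MiR-222 kept its direction under every alternative in which it was tested, and was called higher except without normal liver 2 (adjusted p = 0.0517). With 1 sample left out its log2 difference ran from 1.353 to 1.687. The lone sample of a group is then assumed to vary like the other group. MiR-221 was called higher under equal medians (1.946), equal positive controls (1.409), edgeR (1.189) and DESeq2 (1.192), and under none of the other alternatives run. With 1 sample left out it ran from -0.004, without normal liver 2, to 0.804, without normal liver 1. The members called higher were therefore 2 under those 4 settings and 0 under the filter on single control values, and 0 to 1 with 1 sample left out. The probe for miR-106a and miR-17 turned positive under equal medians (1.325), equal totals (0.227), equal positive controls (0.781), edgeR (0.619) and DESeq2 (0.621). MiR-486 ran from -0.077 to 1.099 with 1 sample left out. Counts of all miRNAs called higher, 22 as reported, ran from 7 without normal liver 2 to 111 under equal medians. Those called lower, 129 as reported, ran from 5 with background subtracted to 276 with no filter. Over all settings the repressors of CDK inhibitors called higher ran from 1 to 7 (3 as reported), those of cyclins or CDKs from 0 to 14 higher (4 as reported) and 0 to 6 lower (4 as reported), and the other X-linked miRNAs from 0 to 11 higher (1 as reported) and 0 to 32 lower (11 as reported). With the replicate block in limma miR-222 had 1.52 (adjusted p = 0.000348) and miR-221 0.40 (adjusted p = 0.38), with 19 higher and 143 lower. The block changed neither call. Deviations of same-numbered samples correlated at 0.042 over 276 miRNAs. That correlation compares a single difference per group, so it cannot tell whether the numbers pair the samples. The causes were not tested. Depth limits miR-222 in the normal livers, where 14 and 10 counts lie under the detection threshold.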
